A study of Mus musculus with 12 samples.

Results

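The 10 genes described here were grouped as smooth muscle contractile genes and targets of serum response factor (SRF). They were measured in mouse embryoid bodies. They are the transgelins *Tagln* and *Tagln2*, the muscle actins *Acta2*, *Actc1* and *Actg2*, and the calponins *Cnn1* and *Cnn2*. The others are the myosin regulatory light chain *Myl9* and the tropomyosins *Tpm1* and *Tpm2*. These 10 genes, of 23086 gene symbols in the table, were chosen by symbol because *Tagln*, *Acta2* and *Actc1* differ strongly between the lines compared. Of the 10, 9 were among the 12322 genes with enough counts to be tested, and *Actg2* was not. The difference between the lines is therefore given for these genes as a description without a test, and tests are given for doxycycline, which was not used to choose them.

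SRF is a transcription factor that binds CArG boxes, short DNA elements with a core of A and T between C and G pairs. Its cofactors of the myocardin and MRTF family switch on contractile and cytoskeletal genes, and MRTF proteins enter the nucleus when monomeric actin is built into filaments. A second group of cofactors, the ternary complex factors, competes for SRF and drives immediate early genes. The products described here build or steer the actin filament: actins form it, tropomyosins lie along it, calponins and transgelins bind it, and the regulatory light chain switches the myosin that pulls on it. In embryos, *Acta2*, *Tagln* and *Cnn1* serve as early smooth muscle markers, though several of the genes are also active in non-muscle cells and, for a time, in the developing heart.

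RNA was sequenced from 12 libraries of embryoid bodies, aggregates of differentiating embryonic stem cells, taken 2 days into differentiation. Both lines derive from A2lox.cre embryonic stem cells, in which a transgene sits at *Hprt* behind a doxycycline-dependent promoter, and carry FLAG-tagged *Lhx1*, a LIM homeodomain transcription factor. The 4 groups of 3 libraries were the FLAG-Lhx1 mutant line with doxycycline for 16 h (MUTD16), the mutant line without it (MUTC16), the FLAG-Lhx1 wild-type line with doxycycline for 16 h (WTD16) and the wild-type line without it (WTC16). The sources used here do not state what the mutation changes. Each construct is present in 1 line, so an effect of the construct and any other difference between the lines cannot be told apart. The labels do not say whether replicates were separate cultures, and p-values then measure only the spread between these libraries, which may be technical.

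The libraries held between 4289984 and 4850393 counts. *Lhx1*, the induced gene, had 235 to 260.2 CPM (counts relative to TMM-adjusted library size) in MUTD16 and 0.407 to 0.429 CPM in MUTC16, and it had 289 to 307 CPM in WTD16 and 1.12 to 3.33 CPM in WTC16, so every library matched its label for doxycycline. This level does not check the mutation. An untreated wild-type library, WTC16 replicate 3, stood apart in holding skeletal muscle transcripts. *Ckm*, the muscle creatine kinase, had 7.85 CPM there and at most 0.914 CPM in any other library. *Tnnt3*, fast skeletal troponin T, had 8.29 CPM there and at most 0.427 CPM elsewhere. WTD16 replicate 2 stood apart in earlier results of these data.

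All 9 tested genes were higher in the mutant line than in the wild-type line, with and without doxycycline, and in none of them did the libraries of the lines overlap. Without doxycycline the median log2 difference of the 9 genes was 1.60 (range 0.18 to 4.64), beside a median of 0.00 over all 12322 genes, and 7 of the 9 were at least 2-fold higher. With doxycycline the median was 1.30 (range 0.36 to 3.41), beside 0.01 over all genes, and again 7 of 9 were at least 2-fold higher. Over all genes, 3.79% were at least 2-fold higher without doxycycline and 3.68% with it. Libraries that did not overlap and were higher in the mutant line were found for 26.2% of all genes without doxycycline and 26.1% with it. Because the choice of genes rests on this difference, these shares are background only. Counts come from whole embryoid bodies, in which a larger share of cells of a type and more RNA per cell cannot be told apart.

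**Figure D1:**
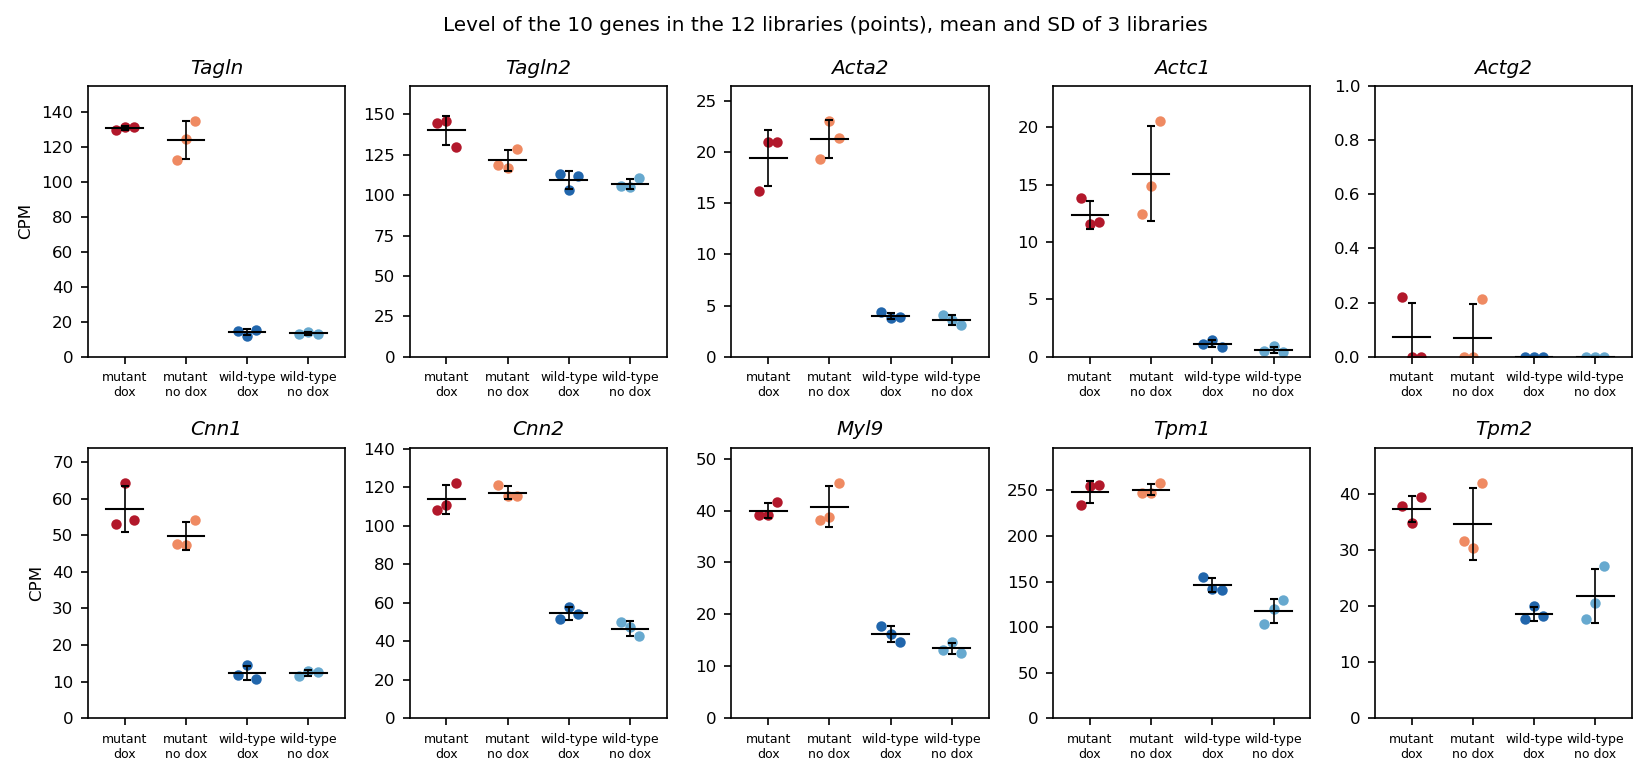
Level of each of the 10 genes in CPM (linear axes starting at 0), mutant groups left of wild-type groups, with libraries as points and the mean of 3 libraries with its SD as line and bar. In 9 of the 10 panels every mutant library lies above every wild-type library, and *Actg2* holds 2 single counts.

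Promoter sequence is shown for 3 of the genes because an exact CArG box lies in their windows and because these genes stood higher together in the mutant line. RefSeq (GRCm38.p6) windows from 250 bases before to 50 bases after the start site were matched by symbol for 8 of the 10 genes, all but *Tagln* and *Actg2*. The CArG box, 2 C, then 6 A or T, then 2 G, was searched by a script. The pattern reads the same on both strands. An exact box lay in the windows of 3 of the 8 genes, against 1.81% of all 27025 genes with a window and 1.58% of the 9166 tested genes with one. The genes were named as SRF targets, and SRF binds this box. A higher share can therefore follow from their choice alone, and the shares are background only. The stretches around the boxes run 5′ to 3′ on the strand of the gene, and capitals mark the exact box. They lie at chr2:114052888-114052962 (minus strand) for *Actc1*, chr10:79988504-79988583 (plus strand) for *Cnn2* and chr2:156775263-156775352 (plus strand) for *Myl9*.
Actc1: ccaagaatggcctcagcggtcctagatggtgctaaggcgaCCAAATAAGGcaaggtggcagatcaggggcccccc
Cnn2: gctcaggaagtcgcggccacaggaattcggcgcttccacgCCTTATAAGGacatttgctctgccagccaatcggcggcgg
Myl9: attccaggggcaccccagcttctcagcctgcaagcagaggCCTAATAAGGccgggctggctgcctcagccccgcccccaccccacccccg

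The *Actc1* box begins 47 bases before the start site, the *Cnn2* box 56 bases before it and the *Myl9* box 161 bases before it. Start sites are those of RefSeq, while the gene positions given below are those of GENCODE. The *Actc1* box lies inside the GENCODE span of its gene, and the *Cnn2* and *Myl9* boxes lie before theirs. With 1 mismatch allowed, 5 of the 8 genes had a box, against 23.8% of all genes with a window, again as background only. *Actc1* then had 3 further boxes and *Myl9* had 1. The added genes were *Acta2*, with CCCTATATGG starting at −84 and CCTTGTTTGG at −34, and *Tpm1*, with CCATATATAG at −221 and CCAAAAAAGT at −80. Both *Acta2* boxes and the *Tpm1* box at −80 lie inside the GENCODE spans of their genes. *Tagln2*, *Cnn1* and *Tpm2* had no box in these windows by either count. A match describes letters in a window, and binding was not measured.

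The transgelins are small calponin-like proteins that cross-link actin filaments. *Tagln* (chromosome 9, 45929619 to 45936058, minus strand, mm10), the smooth muscle form, had 129.8, 131 and 131 CPM in MUTD16 and 113, 125 and 135 CPM in MUTC16. In the wild-type line it had 14.6, 12.1 and 15.4 CPM in WTD16 and 13.3, 14.5 and 12.8 CPM in WTC16. All 6 mutant libraries thus lay far above all 6 wild-type libraries, while the groups with and without doxycycline overlapped within each line. The log2 difference was 3.20 without doxycycline (9.16-fold) and 3.21 with it (9.27-fold), which gave *Tagln* rank 5 from the top of all tested genes without doxycycline and rank 4 with it. *Pcsk7*, on the other strand, overlaps the end of *Tagln*, and since the counting strand is not given, reads of the overlap could be shared. *Pcsk7* itself averaged 17.3 CPM with a log2 difference of −0.08 without doxycycline.

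*Tagln2* (chromosome 1, 172500047 to 172507380, plus strand), the widely expressed relative, showed the smallest line difference of the 9 genes. It had 145, 146 and 130 CPM in MUTD16 and 119, 117 and 129 CPM in MUTC16. It had 113, 103 and 112 CPM in WTD16 and 106, 105 and 110.5 CPM in WTC16. The lines did not overlap, but the lowest mutant and highest wild-type libraries lay close, and the log2 difference was 0.18 without and 0.36 with doxycycline.

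Levels of different genes were compared as CPM per kb of exon. On that scale *Tagln* made up 47.3 to 50.3% of the 3 transgelins in MUTD16 and 48.7 to 51.5% in MUTC16, against 10.4 to 12% in WTD16 and 10.2 to 11.9% in WTC16. In the mutant line *Tagln* stood level with *Tagln2*, at 65.8 ± 0.472 and 67.3 ± 4.22 CPM per kb in MUTD16 (SD, n = 3). In WTC16 it stood at 6.80 ± 0.435 CPM per kb, against 51.4 ± 1.43 for *Tagln2*. *Tagln3*, the neuronal relative, was at 2.98 ± 0.213 CPM per kb in MUTD16 and 2.48 ± 0.538 in MUTC16, against 2.87 ± 0.288 in WTD16 and 4.16 ± 1.39 in WTC16. It fell by 0.73 in the mutant line without doxycycline (SE 0.29, edgeR adjusted p = 0.0328), opposite in direction to *Tagln*, and differed by 0.05 with it (edgeR adjusted p = 0.912). The call was lost by DESeq2 (adjusted p = 0.118) and without MUTC16 replicate 1 (edgeR adjusted p = 0.0581), MUTC16 replicate 3 (0.141) or WTC16 replicate 1 (0.305), where the value was −0.43.

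The 3 muscle actins were low in all groups. *Acta2* (chromosome 19, 34241090 to 34255590, minus strand), the vascular smooth muscle actin, had 16.2, 20.9 and 21.0 CPM in MUTD16 and 19.3, 23.0 and 21.4 CPM in MUTC16. It had 4.34, 3.8 and 3.91 CPM in WTD16 and 4.04, 3.62 and 3.14 CPM in WTC16. The lines were far apart and the treatments overlapped in each line, with a log2 difference between lines of 2.56 (5.88-fold) without doxycycline and 2.27 (4.81-fold) with it.

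*Actc1* (chromosome 2, 114047282 to 114053548, minus strand), the cardiac actin that is also used early in other muscle, had the largest difference of the 9 genes and of all tested genes without doxycycline. It had 13.8, 11.5 and 11.7 CPM in MUTD16 and 12.4, 14.9 and 20.5 CPM in MUTC16. It had 1.14, 1.43 and 0.870 CPM in WTD16 and 0.476, 0.904 and 0.448 CPM in WTC16. These wild-type levels rest on 5, 6 and 4 counts in WTD16 and on 2, 4 and 2 counts in WTC16. The log2 difference was 4.64 (25-fold) without doxycycline, 5.03 without WTC16 replicate 2, and 3.41 (10.6-fold) with doxycycline. *A530058N18Rik*, which overlaps *Actc1* on the other strand, averaged 0.0183 CPM.

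*Actg2* (chromosome 6, 83512905 to 83536265, minus strand), the enteric smooth muscle actin, had 1 count in MUTD16 replicate 1, 1 count in MUTC16 replicate 3 and 0 in the other 10 libraries. The actins are near-identical in their coding parts, so reads can be lost or shared between them. Per kb, *Actb* and *Actg1*, the cytoplasmic actins, dominated in every group, and *Actb* made up 34.0 to 34.7% of the 6 actins in MUTD16 and 34.9 to 36.3% in WTD16. *Acta2* made up 0.499% in MUTD16 and 0.528% in MUTC16 on average, against 0.113% in WTD16 and 0.1% in WTC16. *Actc1* made up 0.432% and 0.537% in MUTD16 and MUTC16, against 0.0436% and 0.0228% in WTD16 and WTC16.

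The calponins bind actin and tropomyosin and hold back the myosin ATPase. *Cnn1* (chromosome 9, 22099216 to 22109630, plus strand), the smooth muscle form, had 53.1, 64.3 and 54.2 CPM in MUTD16 and 47.7, 47.4 and 54.1 CPM in MUTC16. It had 11.9, 14.5 and 10.9 CPM in WTD16 and 11.4, 12.9 and 12.6 CPM in WTC16. Every mutant library was more than 3 times as high as any wild-type library, and the log2 difference was 2.01 (4.04-fold) without and 2.21 (4.62-fold) with doxycycline.

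*Cnn2* (chromosome 10, 79988584 to 79996062, plus strand), the form found widely outside muscle, had 108, 111 and 122 CPM in MUTD16 and 121, 115 and 115 CPM in MUTC16. It had 51.4, 58.0 and 54.4 CPM in WTD16 and 49.9, 47.5 and 42.6 CPM in WTC16. The mutant libraries lay at about the same level with and without doxycycline, and in the wild-type line those with it were all above those without it. Between the lines the log2 difference was 1.33 (2.51-fold) without and 1.06 (2.09-fold) with doxycycline. Per kb, *Cnn1* made up 12.1% of the 3 calponins in MUTD16 and 10.5% in MUTC16, against 4.64% in WTD16 and 4.66% in WTC16. The sum of the 3 was 172 ± 4.58 CPM per kb in MUTD16 and 97.7 ± 1.03 in WTD16 (SD, n = 3).

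*Myl9* (chromosome 2, 156775420 to 156781658, plus strand) encodes the regulatory light chain used by smooth muscle and non-muscle myosin II. It had 39.2, 39.1 and 41.6 CPM in MUTD16 and 38.2, 38.7 and 45.3 CPM in MUTC16. It had 17.8, 16.1 and 14.8 CPM in WTD16 and 13.1, 14.7 and 12.6 CPM in WTC16. The log2 difference was 1.60 (3.02-fold) without and 1.30 (2.46-fold) with doxycycline. Per kb it made up 15.3% of the 3 regulatory light chains of this type in MUTD16 and in MUTC16, against 8.45% in WTD16 and 7.36% in WTC16, and *Myl12b* was the main one in every group.

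Tropomyosins are coiled coils that lie along the filament and set which myosins can bind it. Counts are per gene, so the muscle and non-muscle isoforms that these genes make by alternative splicing were not separated. *Tpm1* (chromosome 9, 67022590 to 67049406, minus strand) had 235, 255 and 256 CPM in MUTD16 and 247, 247 and 258 CPM in MUTC16. It had 155, 142 and 141 CPM in WTD16 and 104, 119.6 and 129.6 CPM in WTC16. The wild-type libraries with doxycycline were all above those without it and all below every mutant library, and the log2 difference between lines was 1.09 (2.13-fold) without and 0.77 (1.70-fold) with doxycycline.

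*Tpm2* (chromosome 4, 43514711 to 43523765, minus strand) had 37.7, 34.8 and 39.4 CPM in MUTD16 and 31.6, 30.3 and 41.9 CPM in MUTC16. It had 17.6, 20.0 and 18.3 CPM in WTD16 and 17.6, 20.6 and 27.1 CPM in WTC16. The highest wild-type value was that of WTC16 replicate 3, the library with *Ckm* and *Tnnt3*, and *Tpm2* is also a skeletal muscle tropomyosin. The log2 difference without doxycycline was 0.66 (1.58-fold) with all libraries and 0.85 without that library, and with doxycycline it was 1.00 (2.01-fold). The part of skeletal muscle RNA in its level was not tested.

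Per kb of exon, the order of the 9 genes in MUTD16 ran from *Tagln2* (67.3 CPM per kb) through *Tagln* (65.8), *Cnn2* (46.3), *Tpm1* (38.3), *Myl9* (34.4), *Cnn1* (20.9), *Tpm2* (12.8) and *Acta2* (8.83) to *Actc1* (7.64). *Tagln2* and *Tagln*, and *Acta2* and *Actc1*, differed there by less than the larger of their SDs. In WTC16 the order was *Tagln2* (51.4), *Cnn2* (19.0), *Tpm1* (18.2), *Myl9* (11.6), *Tpm2* (7.48), *Tagln* (6.80), *Cnn1* (4.49), *Acta2* (1.64) and *Actc1* (0.377), and *Cnn2* and *Tpm1* differed by less than either SD. *Tpm2* and *Tagln* differed there by less than the SD of *Tpm2* (1.67), which includes the high WTC16 replicate 3, but by more than that of *Tagln* (0.435). *Cnn1* stood above *Tpm2* in MUTD16 and below it in WTC16.

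**Figure D2:**
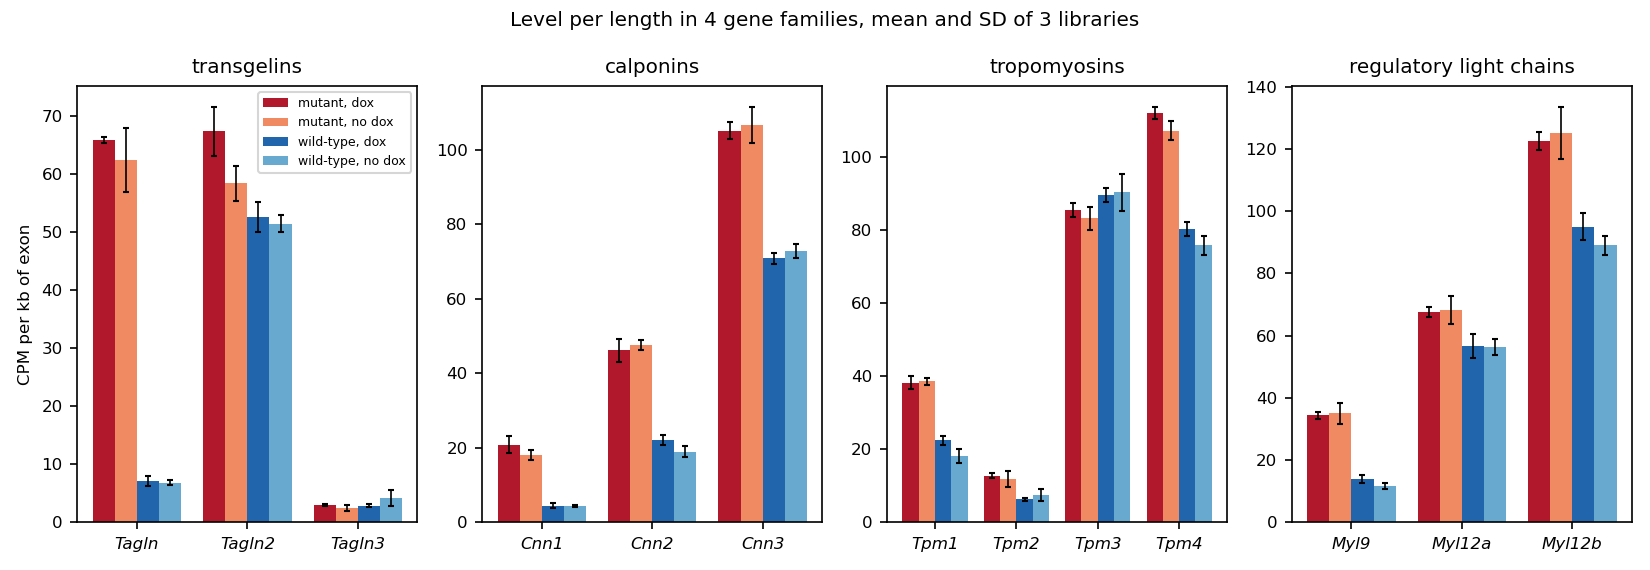
Level per length in CPM per kb of exon (linear axes from 0) for the transgelins, calponins, tropomyosins and regulatory light chains, as means of 3 libraries with their SD, mutant groups left of wild-type groups. *Tagln* stands at 65.8 CPM per kb in MUTD16, level with *Tagln2* at 67.3, and at 7.07 in WTD16, where *Tagln2* stands at 52.5.

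Doxycycline was tested within each line. In the mutant line none of the 9 genes changed by edgeR's quasi-likelihood test at a Benjamini-Hochberg adjusted p under 0.05, and only 0.0162% of all genes (2 genes) were called. DESeq2 and limma-voom also called none of the 9, and 3 of them had an unadjusted p under 0.05, as did 578 of all 12322 genes. The lowest was that of *Tagln2*, whose log2 value was 0.20 (SE 0.06, edgeR adjusted p = 0.610), and it was the only one whose groups did not overlap, as was so for 10.6% of all genes. The others were *Cnn1*, at 0.20 (SE 0.09, edgeR adjusted p = 0.999), and *Actc1*, at −0.37 (SE 0.16, edgeR adjusted p = 0.999). The median of the 9 was −0.01, beside 0.00 over all genes.

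In the wild-type line 1 of the 9 genes was called, *Tpm1*, where 5.32% of all genes were called, 2.76% higher and 2.56% lower. *Tpm1* rose to 146 ± 7.96 CPM in WTD16, against 118 ± 12.9 CPM in WTC16 (SD, n = 3). This is a log2 fold change of 0.31 (1.24-fold, SE 0.06, edgeR adjusted p = 0.000452). The call was made under all 20 alternative settings, with log2 fold changes from 0.23 to 0.40 and adjusted p-values up to 0.0248. In the mutant line the change of *Tpm1* was −0.01 (SE 0.05, edgeR adjusted p = 1).

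The groups of the wild-type line did not overlap, with doxycycline higher, for *Tpm1*, *Cnn2* and *Myl9*, and groups did not overlap in either direction for 18.9% of all genes. *Cnn2* averaged 54.6 ± 3.27 CPM in WTD16 and 46.7 ± 3.75 CPM in WTC16, a log2 fold change of 0.23 that did not pass (SE 0.08, edgeR adjusted p = 0.117). *Myl9* averaged 16.2 ± 1.52 CPM in WTD16 and 13.4 ± 1.12 CPM in WTC16, at 0.27 (SE 0.15, edgeR adjusted p = 0.373). *Actc1* had 0.87 (SE 0.61, edgeR adjusted p = 0.545) at the few counts given. Without both wild-type libraries that stood apart, *Cnn2* was at 0.12 (edgeR adjusted p = 0.678), *Myl9* at 0.22 (0.650) and *Actc1* at 0.51 (0.853).

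*Tagln*, *Cnn1* and *Acta2*, the early smooth muscle markers, were not called with doxycycline in the wild-type line. On the log2 scale the response of *Tagln* was 0.06 (SE 0.15, edgeR adjusted p = 0.913), that of *Cnn1* 0.01 (SE 0.16, edgeR adjusted p = 0.990) and that of *Acta2* 0.16 (SE 0.28, edgeR adjusted p = 0.866). *Tpm2* was at −0.23 (SE 0.15, edgeR adjusted p = 0.485) with all libraries and at −0.04 without WTC16 replicate 3. Without both wild-type libraries that stood apart, *Tagln* was at 0.11, *Cnn1* at −0.10 and *Acta2* at 0.10. These errors leave room for changes of the size seen in *Tpm1*.

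The difference of the doxycycline responses between the lines was tested as an interaction, mutant minus wild type, and 1 of the 9 genes was called, where 2.49% of all genes were. For *Tpm1* it was −0.32 (SE 0.08, edgeR adjusted p = 0.0153). The call was lost by DESeq2 (adjusted p = 0.101), without MUTD16 replicate 1 (edgeR adjusted p = 0.0839), without WTC16 replicate 1 (0.125) and without WTD16 replicate 1 (0.0678), with values from −0.24 to −0.41 over all settings. *Cnn2* had −0.27 (SE 0.10, edgeR adjusted p = 0.202), *Myl9* −0.30 (SE 0.17, edgeR adjusted p = 0.507) and *Actc1* −1.24 (SE 0.63, edgeR adjusted p = 0.402), none of which passed. The line differences of *Tagln* with and without doxycycline, 3.21 and 3.20, differed by 0.02 (SE 0.16, edgeR adjusted p = 0.986).

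**Figure D3:**
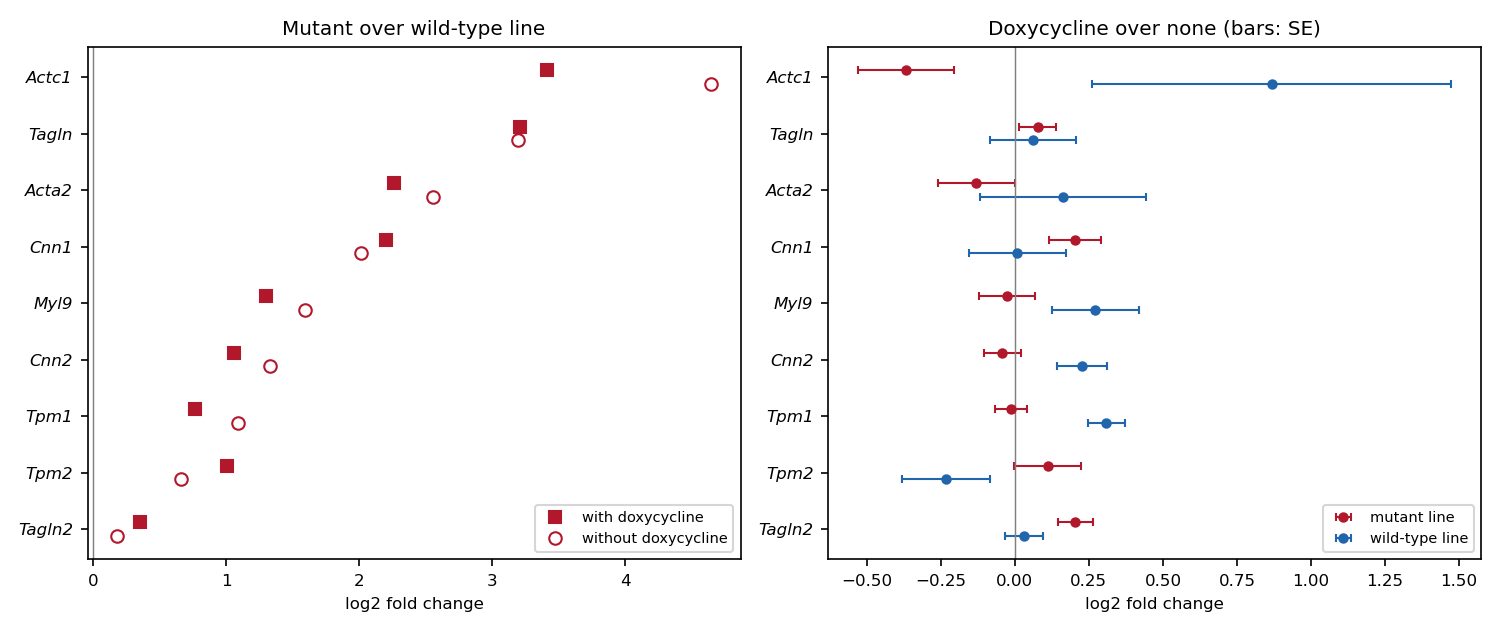
Log2 fold changes of the 9 tested genes, on the left for the mutant over the wild-type line, with and without doxycycline, and on the right for doxycycline over none in each line, with bars of 1 SE from edgeR. Line differences reach 4.64 for *Actc1*, and the only called doxycycline response is that of *Tpm1* in the wild-type line, at 0.31.

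Genes outside the 10 were taken from lists of their relatives, of the pathway and of neighbouring pathways, chosen with earlier results of these data known. Between the lines, 45.5% of all genes were called without doxycycline, 23.0% higher and 22.6% lower in the mutant line, and 44.4% with doxycycline, 21.9% higher and 22.4% lower. Taking each gene once, 87 of 102 listed genes were tested, and 47 rose and 13 fell in the mutant line without doxycycline. With doxycycline 42 rose and 11 fell. The lists share genes, so their counts are not independent.

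Of the relatives of the 10 genes, 14 were listed and 13 tested, and 8 rose and 3 fell in the mutant line without doxycycline, with a median log2 difference of 0.22, and 7 rose and 2 fell with it. *Cnn3*, the calponin of non-muscle cells, rose by 0.55 (SE 0.05, edgeR adjusted p = 1.26e-14), *Tpm4*, a non-muscle tropomyosin, by 0.50 (SE 0.05, edgeR adjusted p = 1.94e-12) and *Myl6*, the essential light chain of smooth and non-muscle myosin, by 0.51 (SE 0.05, edgeR adjusted p = 3.08e-12). Of the cytoplasmic actins, *Actb* differed by 0.18 and *Actg1* by 0.13, both called (edgeR adjusted p = 0.00121 and 0.0121).

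*Acta1*, the skeletal muscle actin and also an SRF target, had 17.3, 19.0 and 18.5 CPM in MUTD16 and 18.5, 14.7 and 20.3 CPM in MUTC16. It had 2.29, 3.33 and 2.61 CPM in WTD16 and 1.19, 2.26 and 14.6 CPM in WTC16, where the third library is the one with skeletal muscle transcripts. With doxycycline the log2 difference was 2.73 (SE 0.67, edgeR adjusted p = 0.0102). Without doxycycline it was 1.54 (edgeR adjusted p = 0.0535) with all libraries and 3.33 (edgeR adjusted p = 2.29e-15) without WTC16 replicate 3. Its doxycycline response in the wild-type line was −1.15 (edgeR adjusted p = 0.611) with all libraries and 0.64 (0.522) without that library, and neither passed.

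**Figure D4:**
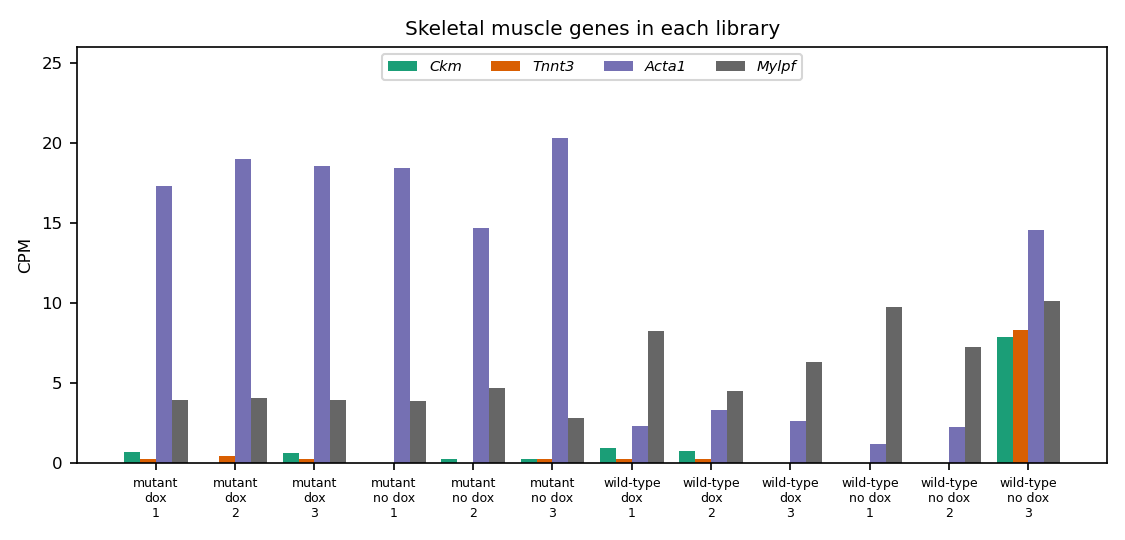
CPM of 4 skeletal muscle genes in each of the 12 libraries (linear axis from 0), mutant libraries on the left. *Acta1* is high in all 6 mutant libraries and in wild-type library 3 without doxycycline, while *Ckm* and *Tnnt3* are high in that wild-type library alone, at 7.85 and 8.29 CPM.

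Of 24 cytoskeletal targets of MRTF and SRF, 23 were tested, and 20 rose and 2 fell in the mutant line without doxycycline (median log2 difference 0.67), while 16 rose and 1 fell with it (median 0.50). *Cald1*, which encodes caldesmon, had 86.4, 83.5 and 88.6 CPM in MUTD16 and 88.4, 86.9 and 83.6 CPM in MUTC16, against 30.4, 31.6 and 32.0 CPM in WTD16 and 29.3, 27.6 and 32.3 CPM in WTC16. Its levels in the lines were well apart, and it rose by 1.54 without doxycycline (SE 0.08, edgeR adjusted p = 8.32e-23) and by 1.46 with it (edgeR adjusted p = 3.24e-22). *Csrp1*, a LIM protein of actin bundles, rose by 1.27 (edgeR adjusted p = 1.54e-21) and *Zyx*, the focal adhesion protein zyxin, by 1.04 (edgeR adjusted p = 3.66e-17). The genes that fell were *Lima1*, at −0.58 (edgeR adjusted p = 1.05e-09), and *Enah*, at −0.18 (edgeR adjusted p = 0.0480), whose call was lost under 11 settings (adjusted p 0.0515 to 0.172, the highest without WTC16 replicate 1). With doxycycline in the wild-type line *Enah* had −0.10 (edgeR adjusted p = 0.583), and it was called at −0.27 (0.000484) without both wild-type libraries that stood apart. An exact CArG box lay in the promoter windows of 8 of the 21 listed genes that had a window. These genes were listed as SRF targets, so this count is a description only.

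Smooth muscle differentiation genes gave a mixed picture. Of 18 listed, 12 were tested, and 5 rose and 1 fell without doxycycline, and 5 rose and 2 fell with it. The share called was 50% without doxycycline and 58.3% with it, beside 45.5% and 44.4% of all genes. Those that rose in both were *Cald1*, *Csrp1*, *Pdlim3*, *Pdlim7* and *Tgfb1i1*, all genes that non-muscle cells also use. *Synpo2* was the gene that fell without doxycycline, and *Smtn* was 1 of the 2 that fell with it. *Pdlim7*, an actin-associated LIM protein, rose by 0.93 (SE 0.08, edgeR adjusted p = 2.74e-15). *Smtn*, which encodes smoothelin, differed by 0.05 without doxycycline (edgeR adjusted p = 0.670) and fell by 0.28 with it (edgeR adjusted p = 0.00543). *Des*, the muscle intermediate filament desmin, had 0.27 (SE 0.21, edgeR adjusted p = 0.304) without doxycycline.

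Some markers of mature smooth muscle were at or near 0, but not all, and 4 of the 7 listed smooth muscle markers could be tested. *Myh11*, the smooth muscle myosin heavy chain, averaged 0.634 CPM in MUTD16, 0.350 in MUTC16, 0.386 in WTD16 and 0.305 in WTC16, and neither it nor *Lmod1*, *Myocd*, *Kcnmb1*, *Mustn1* or *Aoc3* had enough counts to be tested. *Myocd*, which encodes the smooth muscle and cardiac cofactor myocardin, had 0, 0.641 and 0 CPM in MUTD16 and 0 in all of MUTC16, against 0.229, 0.950 and 0.217 CPM in WTD16 and 0.714, 0.452 and 0.224 CPM in WTC16. The smooth muscle name of the 10 genes refers to known use in that tissue, and several of them are also active in non-muscle cells. Of the smooth muscle markers, *Myh11*, *Lmod1* and *Myocd* were too low to be tested, while *Cald1* and *Smtn* were not. The sum of 7 smooth muscle markers was 143 to 151 CPM in MUTD16 and 148 to 150 CPM in MUTC16, against 97.8 to 108 CPM in WTD16 and 90.7 to 97.5 CPM in WTC16, most of it *Cald1* and *Smtn*.

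Markers of other cell types moved in their own ways. The sum of 8 pluripotency and epiblast markers was 2940 to 3090 CPM in MUTD16 and 2900 to 3070 CPM in MUTC16, against 2690 to 2860 CPM in WTD16 and 3010 to 3110 CPM in WTC16. The sum of 13 cardiac markers was lower in the mutant line, at 20.0 to 30.3 CPM in MUTD16 and 24.9 to 25.7 CPM in MUTC16, against 37.0 to 53.2 CPM in WTD16 and 40 to 56.9 CPM in WTC16. The sum of 12 fibroblast and mesenchyme markers was 32.5 to 37.1 CPM in MUTD16 and 34.2 to 37.6 CPM in MUTC16, against 33.7 to 34.4 CPM in WTD16 and 30.5 to 50 CPM in WTC16.

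Endothelium and blood markers (8 genes) summed to 31.0 to 37.7 CPM in MUTD16 and 29.5 to 39.8 CPM in MUTC16, against 49.1 to 62.7 CPM in WTD16 and 56.8 to 62.8 CPM in WTC16. Primitive streak and mesoderm markers (6 genes) summed to 20.3 to 23.1 CPM in MUTD16 and 19.3 to 23.3 CPM in MUTC16, against 26.5 to 36.1 CPM in WTD16 and 9.50 to 13.9 CPM in WTC16. Extraembryonic endoderm markers (7 genes) were higher in the mutant line, at 118 to 137 CPM in MUTD16 and 127 to 137 CPM in MUTC16, against 100 to 115 CPM in WTD16 and 89.7 to 92.4 CPM in WTC16. The part of these cell types in the levels of the 10 genes was not tested.

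The regulators gave calls in both directions. Of 19 genes for SRF, its cofactors and actin regulators, 18 were tested, and 5 rose and 4 fell without doxycycline (median 0.01) and 3 rose and 4 fell with it. *Srf* had 89.2, 97.4 and 93.7 CPM in MUTD16 and 96.0, 95.9 and 92.6 CPM in MUTC16, against 72.7, 66.0 and 68.0 CPM in WTD16 and 75.9, 67.2 and 68.8 CPM in WTC16. The lines did not overlap, and *Srf* rose by 0.43 without doxycycline (SE 0.07, edgeR adjusted p = 6.91e-07) and by 0.44 with it (SE 0.07, edgeR adjusted p = 4.16e-07). *Srf* is itself an SRF target, and its promoter window held 2 exact CArG boxes.

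Neither MRTF gene was called without doxycycline. *Mrtfa*, listed as *Mkl1*, had −0.08 without doxycycline (SE 0.11, edgeR adjusted p = 0.585) and −0.06 with it (edgeR adjusted p = 0.671). *Mrtfb*, listed as *Mkl2*, had −0.02 without doxycycline (SE 0.11, edgeR adjusted p = 0.912) and fell by 0.30 with it (edgeR adjusted p = 0.0177), a call lost by DESeq2 (adjusted p = 0.0746), without MUTD16 replicate 2 (edgeR adjusted p = 0.0757), without WTD16 replicate 2 (0.0725) and without both wild-type libraries that stood apart (0.0654). *Limk2*, a kinase that protects actin filaments through cofilin, fell by 0.49 without doxycycline (edgeR adjusted p = 4.61e-07). *Limk2* lies on chromosome 11, where all tested genes had a median line difference of −0.19.

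Immediate early genes, the targets of SRF with ternary complex factors, gave 3 calls of 7. Of 11 listed, 7 were tested, and 2 rose and 1 fell in the mutant line without doxycycline, and again with it, with medians of 0.01 in both. *Egr1*, a zinc finger transcription factor, had 21.9, 23.5 and 19.0 CPM in MUTD16 and 20.0, 21.2 and 23.1 CPM in MUTC16, against 8.69, 7.60 and 11.7 CPM in WTD16 and 15.7, 16.3 and 11.9 CPM in WTC16. It rose by 0.55 without doxycycline (SE 0.14, edgeR adjusted p = 0.00130) and by 1.19 with it (edgeR adjusted p = 9.09e-09). *Ier2* fell by 0.46 without doxycycline (SE 0.07, edgeR adjusted p = 1.46e-07) and lies on chromosome 8, where the median of all genes was −0.39. *Btg2*, an antiproliferative gene, rose by 0.25 (edgeR adjusted p = 0.0354), a call lost by DESeq2 and without MUTC16 replicate 3, WTC16 replicate 2, WTC16 replicate 3 or both wild-type libraries that stood apart (adjusted p 0.128 to 0.208).

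Targets and partners of YAP and TEAD, which share many genes with MRTF and SRF, were also mostly higher. Of 15 listed, 14 were tested, and 11 rose and 1 fell without doxycycline (median 0.67) and 10 rose and none fell with it (median 0.63). *Cyr61*, a matricellular protein gene, had 25, 28.4 and 33.6 CPM in MUTD16 and 29.0, 25.4 and 26.5 CPM in MUTC16, against 7.54, 7.12 and 6.74 CPM in WTD16 and 6.18, 6.10 and 3.81 CPM in WTC16. It rose by 2.33 without doxycycline (SE 0.17, edgeR adjusted p = 2.93e-17) and by 2.02 with it (edgeR adjusted p = 2.62e-16). *Amotl2*, an angiomotin, rose by 0.92 (edgeR adjusted p = 5.72e-14). *Ajuba*, a LIM protein gene, rose by 1.00 (edgeR adjusted p = 8.19e-16) and lies on chromosome 14, where all tested genes had a median of 0.49.

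In the TGF-beta list, 9 of 11 genes were tested, and 4 rose and 1 fell without doxycycline (median 0.29), and 5 rose and 1 fell with it (median 0.43). *Tgfbr1*, the type I receptor gene, rose by 0.67 (edgeR adjusted p = 3.72e-09) and *Pmepa1*, a target and brake of the pathway, by 0.86 (edgeR adjusted p = 0.00107).

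**Figure D5:**
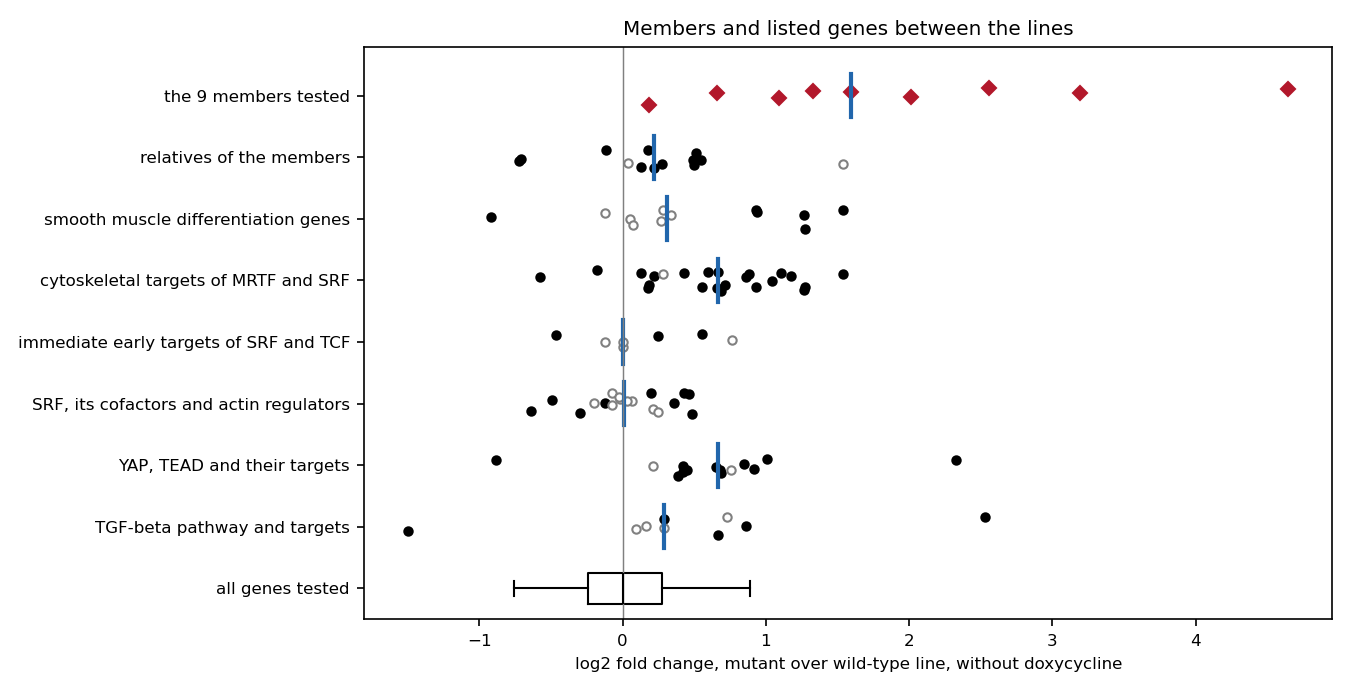
Log2 fold change of the mutant over the wild-type line without doxycycline for the 9 members (diamonds) and for the listed genes (filled, called by edgeR, and open, not called), where blue bars are medians and the box at the bottom shows the 25th to 75th percentile of all tested genes with whiskers at the 5th and 95th. The members reach further right than any list, but they were chosen on this difference, so their reach is a description only. The lists of cytoskeletal targets and of YAP and TEAD have medians of 0.67.

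With doxycycline in the mutant line none of the 87 listed genes was called. In the wild-type line 3 rose and 7 fell, 11.5% of the 87 beside 5.32% of all genes. *Itga5*, the fibronectin receptor subunit and a target of SRF, rose by 0.53 (SE 0.11, edgeR adjusted p = 0.000508), with an interaction of −0.54 (edgeR adjusted p = 0.0202). That interaction was lost by DESeq2 and without MUTC16 replicate 2, MUTD16 replicate 2, WTC16 replicate 3 or both libraries that stood apart (adjusted p 0.0527 to 0.188). *Amotl1* rose by 0.42 (SE 0.10, edgeR adjusted p = 0.00289), with an interaction of −0.46 (edgeR adjusted p = 0.0317). It was lost by DESeq2 (0.237) and without MUTC16 replicate 3, MUTD16 replicate 1 or 3, WTC16 replicate 1 or 2 or WTD16 replicate 3 (0.0874 to 0.116). *Tead1*, a DNA-binding partner of YAP, rose by 0.39 (SE 0.09, edgeR adjusted p = 0.00268), but without both wild-type libraries that stood apart it had 0.25 (edgeR adjusted p = 0.213). Its interaction of −0.49 (edgeR adjusted p = 0.0110) was lost by DESeq2 and without MUTC16 replicate 2, WTC16 replicate 3, WTD16 replicate 2 or both (adjusted p 0.0568 to 0.179).

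Other genes fell with doxycycline in the wild-type line. *Mcl1*, an anti-apoptotic gene with an SRF site in its promoter in human cells, fell by 0.52 (SE 0.04, edgeR adjusted p = 1.13e-13), with an interaction of 0.47 (edgeR adjusted p = 1.84e-07). *Skil*, a repressor of TGF-beta signalling, fell by 0.59 (SE 0.08, edgeR adjusted p = 8.71e-05), with an interaction of 0.51 (edgeR adjusted p = 0.0123). *Zyx* fell by 0.35 (edgeR adjusted p = 0.0104), *Egr1* by 0.63 (edgeR adjusted p = 0.0160) and *Elk4*, a ternary complex factor, by 0.66 (edgeR adjusted p = 0.0400). All 3 calls were lost by DESeq2 (0.0645, 0.0797 and 0.258). That of *Zyx* was also lost without WTC16 replicate 1 or 2 or WTD16 replicate 3 (edgeR adjusted p 0.0787 to 0.0970). That of *Egr1* was lost without WTC16 replicate 1 or 2 or WTD16 replicate 1 or 2 (0.0741 to 0.131). That of *Elk4* was lost under 8 settings and stood at −0.43 without WTC16 replicate 3 (0.367). Of the 23 cytoskeletal targets tested, 1 was called higher (*Itga5*), 2 lower and 20 not at all. Those called lower were *Zyx* and *Lima1*, the latter at −0.24 (edgeR adjusted p = 0.0247). The *Lima1* call was lost by DESeq2 (0.182) and without WTC16 replicate 1 or 2 or WTD16 replicate 1 or 3 (edgeR adjusted p 0.0644 to 0.163). The few calls were thus not in 1 direction, and *Tpm1*, a member outside this list, rose.

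The position of the genes was examined because whole chromosomes differed between the lines. Without doxycycline the median line difference was 0.49 on chromosome 14, −0.39 on chromosome 8 and −0.19 on chromosome 11. None of the 9 tested members lies there. On their chromosomes, which are 1, 2, 4, 9, 10 and 19, the medians ran from −0.03 to 0.07. Off chromosomes 8, 11 and 14, and leaving out listed genes whose older symbols had no position, 17 of 20 cytoskeletal targets were called higher and 2 lower without doxycycline, beside 24.0% of all genes called higher there, and the listed genes of YAP and TEAD gave 8 higher and 1 lower of 10.

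Genes within 500 kb of the members differed between the lines in both directions. Around *Tagln* the 9 tested neighbours had line differences without doxycycline from −0.50 to 1.06, with a median of 0.21. The 4 neighbours of *Actc1* ran from −0.07 to 0.24, the 4 of *Acta2* from −0.65 to 0.56 and the 26 of *Cnn1* from −0.57 to 1.71, with a median of −0.01.

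Genes most like *Tagln* were sought over the 12 libraries by the root mean square difference of log2 CPM, each gene centred on its own mean. A prior count of 2 was added before the log. It draws in the low wild-type values of *Actc1*, which rest on 2 to 6 counts, so the place of *Actc1* may depend on it. Among the members the nearest were *Actc1* (0.374), *Acta2* (0.468) and *Cnn1* (0.577), and the farthest was *Tagln2* (1.45). Outside the members they were *Lpar6* (0.420), a lysophosphatidic acid receptor gene on chromosome 14, *Cntfr* (0.527), a neurotrophic cytokine receptor gene, *Thbs1* (0.574), which encodes thrombospondin 1, *Cyr61* (0.579), *Nes* (0.615), which encodes nestin, and *Dpysl3* (0.655). *Nes* had 177 to 200 CPM in MUTD16 and 180.3 to 197 CPM in MUTC16, against 42.6 to 48.5 CPM in WTD16 and 45.5 to 51.8 CPM in WTC16. Likeness here rests mostly on the difference between the lines, which the libraries of a line share. The members were chosen because *Tagln*, *Acta2* and *Actc1* differ between the lines. The nearness of *Acta2* and *Actc1* to *Tagln* can therefore follow from the choice alone. A minimum mean of 10 CPM was asked only of genes outside the members, and *Actc1* lies below it.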

How the data were processed

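The values are deposited raw counts, 1 table with 23086 symbols and 12 libraries. Per the labels, RNA came from RNeasy columns and libraries from TruSeq kits. Per the submitters' processing notes, Trimmomatic 0.33, TopHat2 2.1.1, the mm10 genome and limma were used. The sources used here do not state the counting tool, annotation or strand setting.

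The deposited counts were tested with edgeR's quasi-likelihood test (edgeR 4.0.16, R 4.3.3; TMM scaling, filterByExpr with a minimum count of 10, equal to 2.18 CPM, and a total of 15, robust estimation). All 12 libraries were fitted with 1 mean per group. Calls are Benjamini-Hochberg adjusted p under 0.05 over 12322 genes, holding 99.8% of counts, within each comparison. Each SE is the absolute log2 change over the root of F. CPM use TMM-adjusted library sizes, and CPM per kb uses GENCODE M21 exon unions (GRCm38). Replicates were compared by chi-square (1.11 to 6.28 per degree of freedom), and none were merged. The highest values were those of WTD16 replicate 2 against its partners, 5.84 and 6.28. WTC16 replicate 3 followed, at 2.37 and 2.41. The test script was tested on simulated data.

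The members and lists were chosen with earlier results of these data known. Named from each list were up to 3 called genes with the smallest adjusted p between the lines without doxycycline and up to 2 in each other comparison, with the regulators *Srf*, *Mrtfa*, *Mrtfb* and *Myocd*. Genes like *Tagln* were the nearest 6 with a mean of at least 10 CPM, other than members. Further listed genes named in the text (such as *Acta1*, *Tagln3*, *Actb*, *Smtn*, *Des*, *Lima1* and *Enah*) were named after their values were seen. Some genes that this rule names are not reported here. Older symbols were matched through the reference tables. Promoters are RefSeq (GRCm38.p6). Alternatives were DESeq2 size factors, upper-quartile scaling, no filter, DESeq2 1.42.0, limma-voom (limma 3.58.1), the compared libraries alone, a replicate block, each library left out and both wild-type libraries that stood apart left out.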

Additional observations from a re-analysis of the deposited data

Results flagged for a closer look

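*Tpm1* responded to doxycycline differently in the lines. The difference of its log2 fold changes, mutant minus wild type, was −0.32 by the interaction term (SE 0.08, edgeR adjusted p = 0.0153). The gene had 249 ± 12.1 CPM in MUTD16 and 251 ± 6.38 CPM in MUTC16, and 146 ± 7.96 CPM in WTD16 and 118 ± 12.9 CPM in WTC16 (SD, n = 3). DESeq2 gave adjusted p = 0.101, and leaving out MUTD16 replicate 1, WTC16 replicate 1 or WTD16 replicate 1 gave edgeR adjusted p = 0.0839, 0.125 and 0.0678. WTC16 replicate 1 was the lowest of the 12 libraries for *Tpm1*, at 104 CPM.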

How the results depend on the processing

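All 9 line differences kept their direction under the 20 alternatives, with medians of 1.51 to 1.67 without and 1.23 to 1.37 with doxycycline, and only that of *Actc1* moved by more than its replicate spread (5.03 without WTC16 replicate 2). Of the doxycycline responses, the count of called members stayed at 0 in the mutant line and 1 in the wild-type line under every alternative. For the interaction the count was 1, but 0 by DESeq2, and 0 to 1 with a library left out, and no fit on the compared libraries alone exists for it. Responses near 0 changed sign under some alternatives without a call (*Tagln* and *Cnn1* in the wild-type line, *Myl9* and *Tpm1* in the mutant line). Listed genes called in the wild-type response numbered 10, 6 by DESeq2 and 7 to 11 with a library left out, and over all genes DESeq2 called 380 against 655, and 153 against 307 for the interaction. The cause was not tested.

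Same-numbered libraries correlated at −0.146 to 0.146, with 2 of 18 pairs over 0.1. Pairs with different numbers ran from −0.257 to 0.205. With 3 libraries a group, these values cannot show whether same-numbered libraries shared a culture or a day. With the replicate block, 1 member was called in the wild-type response, 0 in the mutant response and 1 in the interaction, 618 genes in all in the wild-type response, and 60 and 52 listed genes between the lines. At this depth *Actc1* in the wild-type line and *Actg2* rest on at most 6 counts a library, and small changes in them were not detectable.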

Other observations

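*Mylpf*, a fast skeletal light chain, had 3.91 to 4.06 CPM in MUTD16, 2.78 to 4.68 CPM in MUTC16, 4.51 to 8.23 CPM in WTD16 and 9.75, 7.24 and 10.1 CPM in WTC16, where the last value is that of replicate 3. *Myog*, the myogenin gene, had 0 CPM in that library. The sum of 7 skeletal muscle markers was 22.1 to 24.1 CPM in MUTD16 and 19.9 to 23.7 CPM in MUTC16, most of it *Acta1* in both. It was 8.91 to 12.1 CPM in WTD16, and 11.4, 9.95 and 41.5 CPM in WTC16 replicates 1, 2 and 3.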
